A study of Homo sapiens with 24 samples.

Results

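The cytosolic ribosomal protein genes were followed in Cal33 and SAS, established lines of tongue squamous cell carcinoma. The members are the gene rows whose symbol is RPL or RPS with a number, or RPLP0, RPLP1, RPLP2 or RPSA, leaving out copies with an L suffix and genes on chromosomes X and Y. This gave 73 of 57820 gene rows, 43 for proteins of the large subunit and 30 for proteins of the small subunit. The symbol pattern also matched 3 genes on X (RPL10, RPL36A and RPL39), which were left out of the 73.

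The study asked how the histone demethylase inhibitor GSK-J1 and irradiation act on head and neck squamous cell carcinoma (HNSCC). Total RNA was sequenced from Cal33 and SAS cells after GSK-J1 at 4.5 µM with a single X-ray dose of 4 Gy, after GSK-J1 alone, after 4 Gy alone, and after sham treatment. Each of the 8 groups had 3 libraries, with RNA taken after 24 h, and both lines are labelled wild type. The study names the solvent DMSO as the control of GSK-J1 in its sequencing. GSK-J1 inhibits UTX (KDM6A) and JMJD3 (KDM6B), which remove methyl groups from histone H3. Each line is a single model of its tumor, and the sources used here do not say whether replicates came from separate cultures, so p-values measure only the spread between these libraries.

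Ribosomal proteins assemble with ribosomal RNA into the small subunit, which reads the messenger RNA, and the large subunit, which forms the peptide bond. Their messages are among the most abundant of growing cells, and most begin with a 5′ terminal oligopyrimidine (TOP) stretch, a C followed by further C and T bases, through which mTOR and LARP1 adjust translation and stability together. Free RPL5 and RPL11 are also known to bind MDM2 when assembly of the ribosome is disturbed.

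The libraries held between 54200036 and 96848227 counts. All 8 squamous epithelial markers, KRT5, KRT14 and TP63 among them, were detected in every library, while of 9 markers of other cell types PTPRC (leukocytes) reached at most 0.124 CPM (counts scaled to a common library size) and HBB was at 0 in 20 of 24 libraries. The 9 summed to 27.6 to 49.2 CPM in Cal33, mostly COL1A1, and to 4.56 to 14.03 CPM in SAS. In SAS the highest of them on average was VWF (endothelium), with a mean of 5.84 CPM. It was detected in every library of both lines, at 0.737 to 10.4 CPM. A set of 8 transcripts of Cal33, chosen for being near 0 in most SAS libraries, stood at 1.29% of the Cal33 level in SAS GSK-J1 replicate 1 and at 0.728% in replicate 1 of SAS with GSK-J1 and 4 Gy. In the other SAS libraries it reached at most 0.00711%. Counts of calls and medians of the members in the SAS comparisons are given with and without these 2 libraries, which was decided after seeing the data. Other gene lists were read only with them.

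The starts of the messages were read from RefSeq (GRCh38.p14, windows of 300 bases per start) for the 58 members found there. At least one start with a C followed by 4 or more C or T bases was present in 43 of the 58 members (74.1%), against 1361 of 27247 other genes. In the list of translation factors and other TOP messages, 7 of 8 matched genes had it. It is a description of letters at an annotated start, not of a regulated site. The windows below run from 10 bases before to 20 bases from the start, 5′ to 3′ on the strand of the gene, with the pyrimidine run that begins with C at the start in capitals. Where a gene had several starts, the one with the longest run is shown. They were chosen after the values were seen and belong to members that fell in irradiated SAS cells, to RPS26, which moved the other way, and to RPSA, which differed strongly between the lines.
RPL3: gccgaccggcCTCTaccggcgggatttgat
RPL13A: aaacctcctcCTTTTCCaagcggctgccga
RPL10A: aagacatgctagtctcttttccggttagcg
RPL12: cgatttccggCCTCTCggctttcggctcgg
RPS6: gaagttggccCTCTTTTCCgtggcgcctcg
RPLP0: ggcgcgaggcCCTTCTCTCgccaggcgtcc
RPS26: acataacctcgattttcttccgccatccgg
RPSA: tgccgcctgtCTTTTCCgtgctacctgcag
On GRCh38.p14 these windows are chr22:39319604-39319633 (minus strand) for RPL3, chr19:49487598-49487627 (plus) for RPL13A, chr6:35468391-35468420 (plus) for RPL10A, chr9:127451387-127451416 (minus) for RPL12, chr9:19380217-19380246 (minus) for RPS6, chr12:120201092-120201121 (minus) for RPLP0, chr12:56041908-56041937 (plus) for RPS26 and chr3:39406710-39406739 (plus) for RPSA. At the annotated starts of RPL10A and RPS26 no such run begins, and in RPL3 it is 4 bases long. The median log2 fold change after 4 Gy in SAS, described below for all members, was -0.30 over the 43 members with such a start and -0.30 over the 15 without.

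Together the 73 genes took 4.28 to 11.6% of all counts. In SAS the share was 8.56, 8.17 and 8.93% with GSK-J1 and 4 Gy, against 11.2, 9.98 and 10.7% with GSK-J1 alone. It was 9.28, 8.66 and 8.44% after 4 Gy, against 11.6, 10.2 and 10.3% in sham cells. All 6 irradiated SAS libraries lay below all 6 that were not irradiated. Mitochondrial transcripts took 4.36 to 6.03% of counts in the irradiated and 3.65 to 5.31% in the other SAS libraries, and their part in the shares was not tested. Relative to nuclear genes alone the members' share was 8.85 to 9.71% after 4 Gy and 10.7 to 12.04% in sham cells.

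In Cal33 the share was 4.55, 4.57 and 4.45% with GSK-J1 and 4 Gy, against 5.26, 4.37 and 4.67% with GSK-J1 alone. It was 4.52, 4.28 and 4.45% after 4 Gy, against 4.33, 4.35 and 4.85% in sham cells. Irradiated and non-irradiated Cal33 libraries overlapped in both comparisons. Relative to nuclear genes alone the Cal33 share was 4.59 to 4.90% after 4 Gy and 4.80 to 5.39% in sham cells. On that scale it was 4.70 to 4.97% with GSK-J1 and 4 Gy, against 4.86 to 5.80% with GSK-J1 alone. These ranges overlapped too, with the irradiated ones reaching lower. Every Cal33 library lay below every SAS library. Counted per kilobase of exon, the sham SAS cells held 13.2% of all such units in the 73 genes.

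**Figure D1:**
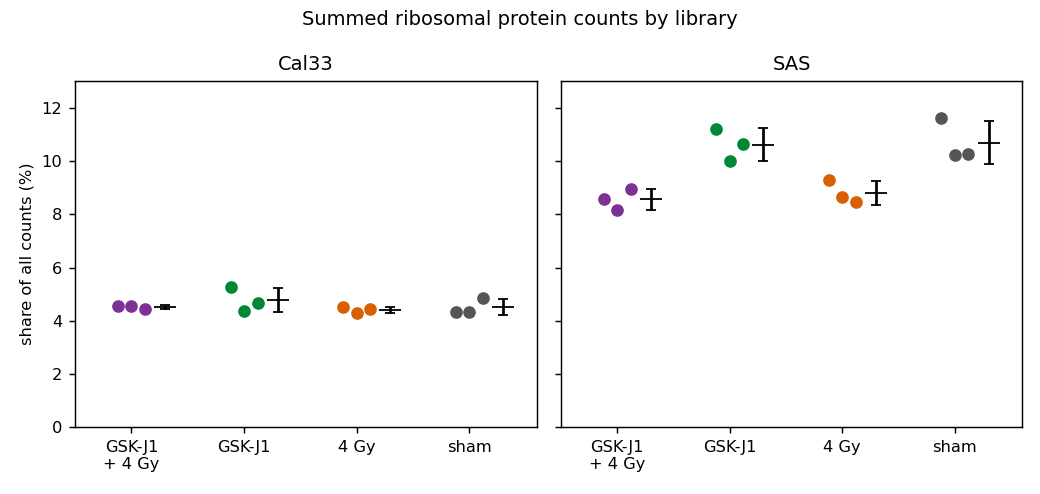
Share of all counts (%, vertical axis) that fell on the 73 ribosomal protein genes, with a point for each library and a bar for the mean and SD of 3 libraries, by treatment in Cal33 (left) and SAS (right). The irradiated SAS libraries lie between 8.17 and 9.28%, below the other SAS libraries at 9.98 to 11.6%, while the Cal33 libraries overlap between 4.28 and 5.26%.

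Per length, in TPM (counts per length, scaled to a common total) averaged over the 24 libraries, the highest members were RPS12, RPS2 and RPL8, all constituents of the mature ribosome, followed by RPL13A and RPL7A. RPS12 averaged 2750 ± 290 TPM in Cal33 and 5999 ± 863 TPM in SAS (SD over the 12 libraries of each line), and RPS2 averaged 3226 ± 381 TPM in Cal33 and 5405 ± 642 TPM in SAS. RPS12 was above RPS2 in SAS by less than the SD of either gene, and below it in Cal33 by more. At the low end, RPL22 averaged 177 ± 17.7 TPM in Cal33 and 240 ± 26.1 TPM in SAS, and RPS15A 103 ± 6.24 TPM in Cal33 and 134 ± 19.0 TPM in SAS. RPL17 and RPS10 lay below these.

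The levels of RPL17 and RPS10 are uncertain. They share exons with the read-through rows RPL17-C18orf32 and RPS10-NUDT3, and how reads shared with these were counted was not tested. Exon lengths in the files include retained introns, so that TPM of some members are understated.

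In irradiated SAS cells the counts of many ribosomal protein genes made up a smaller part of the library. CPM are relative levels from bulk RNA, in which fewer cells of a kind and less RNA per cell cannot be told apart. After 4 Gy, 18 of 73 members fell and 1 rose relative to sham, at an adjusted p under 0.05 (edgeR quasi-likelihood test, Benjamini-Hochberg over 23416 genes), where 7.08% of all genes tested were called, 3.45% as lower and 3.63% as higher. The median log2 fold change was -0.30, a ratio of 0.812, against -0.02 for all genes tested, and 70 of 73 values were negative. In 52 of 73 members (30 large and 22 small subunit genes) all 3 irradiated libraries lay below all 3 sham libraries, against 13.8% of all genes tested. In RPS26 and RPS10 they lay above, against 13% of all genes tested. Members vary together between libraries, so counts of signs and of groups without overlap, here and below, are not independent observations.

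RPL3, a core protein of the large subunit close to the peptidyl transferase center, had the largest decrease. It had 3415, 3147 and 2926 CPM (scaled within the line) after 4 Gy, against 5250, 4657 and 4073 CPM in sham cells. The groups did not overlap, and the log2 fold change was -0.56 ± 0.12 (SE, edgeR adjusted p = 0.0133).

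RPL13A, which is also known as a translational silencer in interferon-treated monocytes, had 2699, 2411 and 2356 CPM after 4 Gy, against 3871, 3363 and 3112 CPM in sham cells. All 3 irradiated libraries were below all 3 sham libraries, with a log2 fold change of -0.47 ± 0.10 (edgeR adjusted p = 0.0144). RPL10A, of the L1 stalk of the large subunit, had 843, 803 and 821 CPM after 4 Gy, against 1155, 1103 and 1131 CPM in sham cells. The replicates were close together, at 822 ± 19.9 CPM after 4 Gy and 1130 ± 25.6 CPM in sham cells (SD, n = 3 each), and the log2 fold change was -0.46 ± 0.08 (edgeR adjusted p = 0.00467).

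RPL5, which with RPL11 and 5S ribosomal RNA forms the particle that can bind MDM2, had 1490, 1480 and 1455 CPM after 4 Gy, against 1964, 1919 and 2079 CPM in sham cells. The groups were far apart, with a log2 fold change of -0.43 ± 0.07 (edgeR adjusted p = 0.005). Its partner RPL11 had 1058, 1030 and 934 CPM after 4 Gy, against 1365, 1163 and 1087 CPM in sham cells. These groups did not overlap either, but the log2 fold change of -0.26 ± 0.10 did not pass the test (edgeR adjusted p = 0.127).

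Of the small subunit, RPS6, the substrate of the S6 kinases, had 2803, 2632 and 2455 CPM after 4 Gy, against 3922, 3235 and 3304 CPM in sham cells, a log2 fold change of -0.41 ± 0.10 (edgeR adjusted p = 0.0238). Its groups did not overlap. RPLP0, the base of the ribosomal stalk and a common reference gene in PCR, had 2777, 2826 and 2826 CPM after 4 Gy, against 3700, 3653 and 3693 CPM in sham cells. It fell by 0.39 on the log2 scale (edgeR adjusted p = 0.0171), with nearly equal values within each group. Its partners in the stalk did not pass the test, RPLP1 at a log2 fold change of -0.27 and RPLP2 at -0.22.

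Other members that fell after 4 Gy included RPL4, RPL6, RPL7, RPL12, RPL14, RPL15, RPL22, RPL23 and RPL28 of the large subunit and RPS3A and RPS15A of the small subunit. In all, 14 of 43 large and 4 of 30 small subunit genes fell, yet the medians were alike at -0.30 for both subunits. Summed over the subunits, the log2 ratio of large to small subunit counts was 0.667 to 0.686 after 4 Gy and 0.687 to 0.705 in sham cells, ranges that touch closely without overlapping. Of further members, RPS27A, which is made as a fusion with ubiquitin, had a log2 fold change of -0.22, and RPSA, the laminin receptor precursor, of -0.26. RPS19, mutated in Diamond-Blackfan anemia, had -0.27, RPL41, which encodes a very short peptide, -0.40, and RPS27 -0.40. None of these 5 passed the test.

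RPS26, which sits near the exit of the messenger RNA channel, rose. It had 117, 113 and 108 CPM after 4 Gy, against 80.9, 87.3 and 62.3 CPM in sham cells. The groups did not overlap, and the log2 fold change was 0.55 ± 0.12 (edgeR adjusted p = 0.016). RPS10 had 9.94, 9.96 and 12.6 CPM after 4 Gy, against 8.90, 6.30 and 7.67 CPM in sham cells, a log2 fold change of 0.51 ± 0.20 that did not pass the test (edgeR adjusted p = 0.139). Across the 12 SAS libraries the median of Pearson's r between pairs of members was 0.888. RPS26 (median r with the others -0.66) and RPS10 (-0.61) ran against the family. Over the 10 SAS libraries without the 2 that hold Cal33 transcripts the median r was 0.884. These coefficients are over libraries that share treatments, and are given as a description only.

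Same-numbered libraries of SAS deviated together (lowest correlation of deviations 0.386 between 4 Gy and sham). With the replicate number as a block, 63 members fell and 2 rose, where 24.5% of all genes were called, and the members that did not pass included RPL17, RPL24, RPL27, RPL35, RPL38, RPS15 and RPS24. RPL24, for example, had a blocked log2 fold change of -0.07 ± 0.09. Without 4 Gy replicate 1, 2 or 3 the unblocked test called 9, 6 and 4 members, and without sham replicate 1 it called 6. DESeq2 called 36, where 12.1% of all genes were called. Without the 2 libraries that hold Cal33 transcripts, which belong to neither group of this comparison, 15 were called, against 5.57% of all genes. The median of the members stayed at -0.30.

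**Figure D2:**
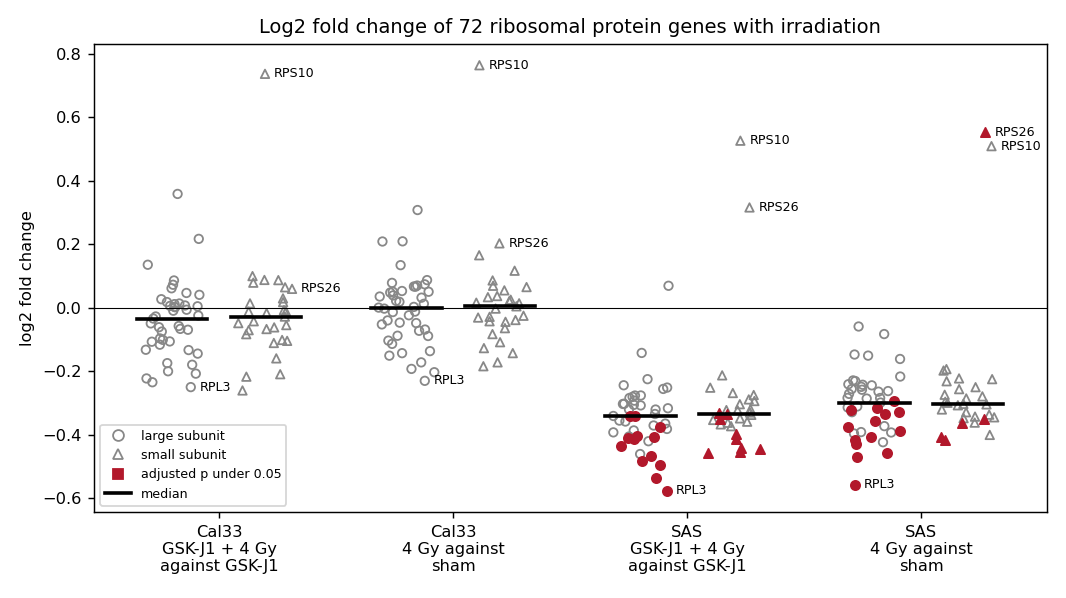
Log2 fold change (vertical axis) of 72 ribosomal protein genes in 4 comparisons of irradiated with non-irradiated cells, with circles for large and triangles for small subunit genes, filled red at an adjusted p under 0.05, and lines are medians. The medians lie near -0.30 and -0.34 in SAS and near 0 in Cal33, and RPS26 and RPS10 lie above the others in SAS.

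Under GSK-J1 the same comparison used 6 other SAS libraries. They are not an independent repeat of the first comparison. Same-numbered libraries deviated together between GSK-J1 and sham (lowest r 0.758) and between the combination and 4 Gy (lowest r 0.660). Both comparisons also shared 1 estimate of the spread. With GSK-J1 and 4 Gy, 22 of 73 members fell and 0 rose relative to GSK-J1 alone, where 4.42% of all genes tested were called, 1.99% as lower and 2.43% as higher. The median log2 fold change was -0.34, a ratio of 0.789, against 0.00 for all genes tested, and 70 of 73 values were negative. In 66 members (39 large and 27 small subunit genes) the groups did not overlap, with the combination lower, against 12% of all genes tested, and in RPS26 the combination was higher, against 14% of all genes tested. Of the members that fell, 16 had also fallen after 4 Gy alone, which is 88.9% of the 18 and 72.7% of the 22. The matching overlap over all genes called is not given, and whether the members' overlap is particular to them was not tested. Without the 2 libraries that hold Cal33 transcripts the groups, then of 2 libraries each, did not overlap in 67 members with the combination lower, against 22.1% of all genes tested, and no member was called, so that no call was shared. The log2 ratio of large to small subunit counts was 0.651 to 0.670 in the combination and 0.680 to 0.708 with GSK-J1 alone.

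RPL3 again had the largest change, with 3227, 2758 and 3117 CPM with GSK-J1 and 4 Gy, against 5100, 4329 and 4148 CPM with GSK-J1 alone (log2 fold change -0.58 ± 0.12, edgeR adjusted p = 0.0156). RPL13A followed with 2316, 2111 and 2392 CPM in the combination, against 3522, 3186 and 3194 CPM with GSK-J1 alone (-0.54 ± 0.10, edgeR adjusted p = 0.0106). In both genes all libraries of the combination were lower.

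RPL10A had 783, 749 and 874 CPM with GSK-J1 and 4 Gy, against 1163, 1077 and 1153 CPM with GSK-J1 alone (log2 fold change -0.50 ± 0.08, edgeR adjusted p = 0.00446). RPL12, part of the base of the stalk, had 1820, 1840 and 1993 CPM in the combination, against 2706, 2586 and 2604 CPM with GSK-J1 alone (-0.48 ± 0.08, edgeR adjusted p = 0.00857). RPL13 had 1336, 1125 and 1404 CPM in the combination, against 1993, 1550 and 1803 CPM with GSK-J1 alone (-0.47 ± 0.12, edgeR adjusted p = 0.0495). None of these 3 genes overlapped between the groups. RPL13 lay just inside the threshold.

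RPS26 was again higher, at 104, 96.7 and 98.7 CPM with GSK-J1 and 4 Gy, against 76.7, 91.6 and 72.1 CPM with GSK-J1 alone, but its log2 fold change of 0.32 ± 0.12 did not pass the test (edgeR adjusted p = 0.146). DESeq2 called 54 members, all as lower, where 9.48% of all genes were called. With the replicate block, 68 members fell and 2 (RPS10 and RPS26) rose, where 21.5% of all genes were called. Without the 2 libraries that hold Cal33 transcripts, 0 members were called by edgeR and 0.414% of all genes were, while 39 members had an unadjusted p under 0.05. The median was then -0.30. With the block and without those 2 libraries, 41 fell and 1 rose, where 10.0% of all genes were called. Leaving out single libraries gave 7, 3 and 9 calls without replicate 1, 2 or 3 of the combination, 4, 14 and 11 without replicate 1, 2 or 3 of GSK-J1, 12 without 4 Gy replicate 2 and 12 without 4 Gy replicate 3, and 34 without sham replicate 3.

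**Figure D3:**
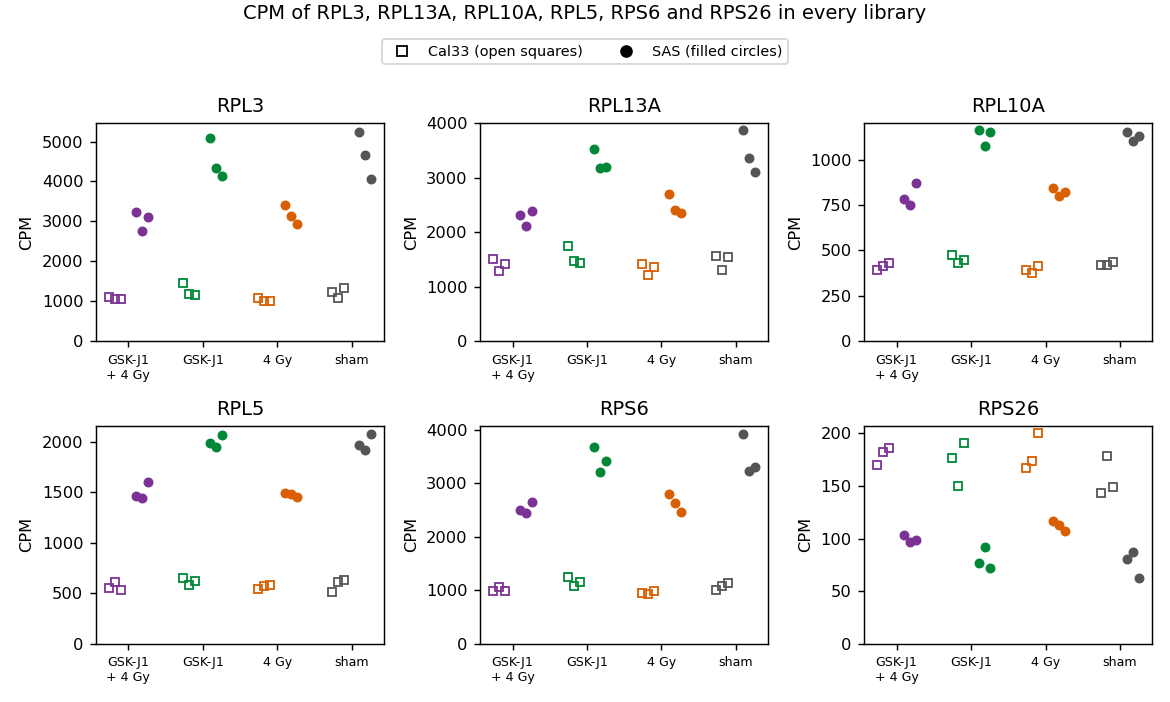
CPM (vertical axis, from 0) of RPL3, RPL13A, RPL10A, RPL5, RPS6 and RPS26 in each library by treatment, with Cal33 as open squares and SAS as filled circles. In SAS the first 5 genes are lower in both irradiated groups and RPS26 is higher, for instance RPL3 at 2926 to 3415 CPM after 4 Gy against 4073 to 5250 CPM in sham cells.

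In irradiated Cal33 cells no member was called. After 4 Gy relative to sham, edgeR called 0 of 73 members, where 6.27% of all genes tested were called, 3.47% as higher and 2.81% as lower. Only 3 members reached an unadjusted p under 0.05, and 0 were called by DESeq2. The median log2 fold change was 0.00, with 38 positive and 35 negative values, against 0.01 for all genes tested. The members' standard errors had a median of 0.11, close to the 0.10 in SAS.

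RPL3 had 1077, 1016 and 1004 CPM after 4 Gy, against 1220, 1077 and 1337 CPM in Cal33 sham cells. The groups all but touched at 1077 CPM, and the log2 fold change was -0.23 ± 0.11 (edgeR adjusted p = 0.257). The 3 members with the smallest p were RPS10 at a log2 fold change of 0.76 ± 0.31, RPL15 at -0.20 ± 0.09 and RPL17 at 0.31 ± 0.13, of which RPS10 and RPL17 have the read-through partners named above. RPL15 of the large subunit had 361, 336 and 366 CPM after 4 Gy, against 409, 398 and 419 CPM in sham cells, without overlap. In 8 members the irradiated libraries lay below the sham libraries without overlap, and in 2 above, against 12.4% and 13.4% of all genes tested.

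With GSK-J1 and 4 Gy relative to GSK-J1 alone, edgeR called 0 members in Cal33 (7 at an unadjusted p under 0.05), where 5.11% of all genes tested were called, 3.04% as higher and 2.07% as lower. DESeq2 called RPL15 as lower, where 10.1% of all genes were called, and the 6 libraries of the comparison with a block called RPS10 and RPL17 as higher, where 18.4% of all genes were called. Both shares are above those of the members. RPL15 had 391, 383 and 372 CPM in the combination, against 463, 439 and 436 CPM with GSK-J1 alone, without overlap. The median log2 fold change was -0.03, against 0.02 for all genes tested, and ran from -0.10 to 0.05 when single libraries were left out. In 10 members the groups did not overlap with the combination lower, and in RPL17 with it higher, against 12.9% and 13.2% of all genes tested. In Cal33 mitochondrial transcripts took 5.43 to 8.35% of counts in the irradiated and 9.31 to 10.1% in the other libraries, and their part in these values was not tested.

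The difference in the response of the lines was tested in 1 fit of all 24 libraries. The log2 fold change after 4 Gy was higher in Cal33 than in SAS in 72 of 73 members, with a median difference of 0.27 against 0.02 for all genes tested. Here too the 72 signs are not independent observations, since members vary together. No member passed the test (0.427% of all genes tested were called, 0.285% as higher and 0.142% as lower), although 22 had an unadjusted p under 0.05, and DESeq2 called RPL5 and RPL10A, where it called 1.76% of all genes. RPL5 had the smallest p, with a difference of 0.36 ± 0.12 (edgeR adjusted p = 0.246). In the separate fits of each line its log2 fold change was -0.05 in Cal33 and -0.43 in SAS. RPL10A followed with a difference of 0.33 ± 0.11 and RPS12 with 0.45 ± 0.17. RPS26 was the exception, with a difference of -0.36 ± 0.17. Without SAS sham replicate 1 the median difference was 0.16. Without the 2 libraries that hold Cal33 transcripts it was 0.25, with 0 members called and 12 at an unadjusted p under 0.05, where 0.247% of all genes were called. A difference in response was thus not detectable for single genes by edgeR.

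With GSK-J1 no member was called in the 12 libraries of either line. In SAS, GSK-J1 relative to sham gave 0 members called by edgeR or DESeq2 and 0 with an unadjusted p under 0.05, where 0.0% of all genes tested were called by edgeR and 0.0128% by DESeq2. With the block 0 members and 0.0427% of all genes were called. The median log2 fold change was -0.01 (-0.07 to 0.07 when single libraries were left out), and over 72 members the values ran from -0.07 (RPL41) to 0.06 (RPS26). In 0 members did the groups not overlap, against 2.22% of all genes tested as higher and 2.89% as lower. With GSK-J1 and 4 Gy relative to 4 Gy alone, edgeR and DESeq2 called 0 members in SAS and 0 had an unadjusted p under 0.05, where 0.0% of all genes tested were called. The median there was -0.06, with 63 of 73 values negative, and ran from -0.10 to -0.01 when single libraries were left out (-0.01 without 4 Gy replicate 1). RPS26 (-0.18) and RPS15A were lower in the combination without overlap and 0 members were higher, against 3.82% and 6.01% of all genes tested. A blocked fit of these 6 libraries alone called 4 members as lower, RPS26, RPL35, RPL18 and RPL13A, where 7.98% of all genes were called. Without the 2 libraries that hold Cal33 transcripts, both comparisons called 0 members, with medians of -0.07 for GSK-J1 relative to sham and -0.06 for the combination relative to 4 Gy. With the block and without them the medians were 0.00 and 0.01. Without the 2 libraries 0 members were higher and 1 lower without overlap with GSK-J1 relative to sham, against 5.61% and 6.38% of all genes. Relative to 4 Gy, the combination was higher without overlap in 4 (RPL7, RPL17, RPL22 and RPS3A) and lower in 2, against 12.4% and 9.58%. Both counts compare 2 libraries with 3.

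In Cal33, 72 of 73 members had a positive log2 fold change with GSK-J1 relative to sham, with a median of 0.09 against 0.00 for all genes tested. Without GSK-J1 replicate 1 the median was 0.01, with 43 of 73 values positive, and without any other single library it was at most 0.14. By edgeR and DESeq2 0 members were called and 0 reached an unadjusted p under 0.05, where 0.0% of all genes tested were called. RPS27 (0.14), RPL15 (0.13) and RPS29 (0.16) had the smallest p. These 3 and RPL23 were higher with GSK-J1 without overlap and 0 members were lower, against 1.75% and 1.81% of all genes tested. Members vary together between libraries, so these 72 signs are not independent observations. With GSK-J1 and 4 Gy relative to 4 Gy alone, the median in Cal33 was 0.06 (0.02 to 0.07 when single libraries were left out), and edgeR and DESeq2 called 0 members, with 0 at an unadjusted p under 0.05, where 0.0% of all genes tested were called. RPL32 and RPL15 were higher in the combination without overlap and 0 members were lower, against 2.34% and 2.19% of all genes tested. The interaction of GSK-J1 and 4 Gy called 0 members in either line by edgeR and by DESeq2, with 0 at an unadjusted p under 0.05, a median of -0.03 in Cal33 and of -0.05 in SAS, where 0.0% of all genes tested were called. Leaving out single libraries gave medians of -0.10 to 0.04 in Cal33 and -0.13 to 0.01 in SAS. Without the 2 libraries with Cal33 transcripts the SAS median was 0.00, with 0 members called.

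Other gene lists were read in the same comparison of SAS after 4 Gy with sham, where 3.63% of all genes tested were called as higher and 3.45% as lower. Of 15 measured translation factors and other TOP messages, 7 fell and 0 rose, with a median log2 fold change of -0.30. They included EEF1A1 (-0.55), which brings aminoacyl-tRNA to the ribosome, EEF2 (-0.43), which moves the ribosome along, EIF3E (-0.46) and EIF3L (-0.43) of initiation factor 3, and GNB2L1 (-0.44), the RACK1 protein of the small subunit. Of 6 ribosomal protein genes that are not among the members, RPL10 (-0.48) and RPS4X (-0.42) fell. FAU (-0.07), whose ribosomal protein is made as a fusion with a ubiquitin-like protein, did not pass the test. With GSK-J1 and 4 Gy relative to GSK-J1 alone, 4 of the 15 fell (EIF3L, EEF1A1, GNB2L1 and EEF2), and again RPL10 (-0.52) and RPS4X (-0.46). Neither these lists nor those below were read without the 2 libraries that hold Cal33 transcripts. Without them 0.414% of all genes were called in this comparison.

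Some of the genes that build ribosomes rose in SAS. Of 30 genes of RNA polymerase I and rRNA processing 5 rose and 0 fell after 4 Gy (NOP2, NOP16, NOLC1, NOP10 and BOP1), with a median of 0.15. Of 20 assembly and export factors 6 rose and 0 fell (LSG1, PNO1, LTV1, GTPBP4, MRTO4 and RPF2), with a median of 0.31. Of 77 mitochondrial ribosomal proteins 4 rose and 0 fell, with a median of 0.13, and of 72 nuclear genes of the respiratory chain 1 fell, ATP5G2, a subunit of the ATP synthase, and 0 rose. With GSK-J1 and 4 Gy relative to GSK-J1 alone, where 2.43% of all genes tested were called as higher and 1.99% as lower, 4 of the 20 assembly and export factors rose (median 0.27), 0 of the 30 genes of RNA polymerase I and rRNA processing (median 0.08) and 0 of the 77 mitochondrial ribosomal proteins (median 0.07) were called, and 1 gene of the respiratory chain fell. Of a fixed list of 10 genes read as a radiation check, 3 rose and 0 fell in SAS after 4 Gy, where 3.63% of all genes tested were called as higher. The 3 were CDKN1A (0.52) and GDF15 (0.54), known radiation targets, and CDC20 (0.59). Of the 10 values, 7 were positive and 3 negative, with a median of 0.19 and a lowest value of -0.38.

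In Cal33 after 4 Gy, 3.47% of all genes tested were called as higher and 2.81% as lower. The 15 translation factors and other TOP messages had a median of -0.04 there with 0 called (2 at an unadjusted p under 0.05, EIF3L and EIF4B). The lists of 30 RNA polymerase I and rRNA processing genes and of 20 assembly and export factors had medians of 0.33 and 0.31. Of these, RRP12 and SBDS were called as higher. The respiratory chain had a median of -0.24 with 4 of 73 genes lower. Of the paralogs, RPL22L1, the copy of RPL22 that can replace it, rose. It had 22.4, 23.3 and 27.6 CPM after 4 Gy, against 9.66, 17.8 and 14.3 CPM in sham cells, without overlap (log2 fold change 0.81 ± 0.21, edgeR adjusted p = 0.0422), while RPL22 had a log2 fold change of -0.17 that did not pass the test. In SAS RPL22 fell by 0.32 on the log2 scale and RPL22L1 had 0.09, not called.

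**Figure D4:**
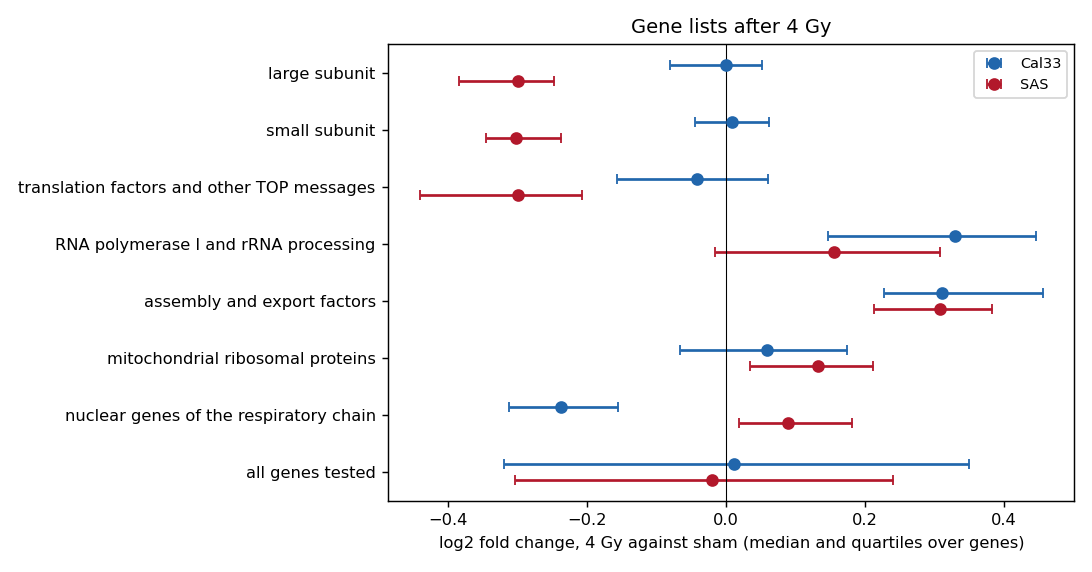
Median (point) and quartiles (bar) of log2 fold changes after 4 Gy against sham (horizontal axis) over the genes of each list, in Cal33 (blue, upper) and SAS (red, lower). In SAS both subunits and the TOP list have medians at -0.30 while assembly and export factors lie at 0.31, and in Cal33 the ribosomal proteins lie at 0.

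The lines themselves differed by more than irradiation moved SAS. In sham cells, 71 of 73 members were lower and 1 was higher in Cal33 than in SAS, where 54.5% of all genes tested were called, 27.2% as lower and 27.2% as higher. The median log2 difference was -1.35, a ratio of 0.393, against 0.02 for all genes tested. It was -1.38 over the large and -1.15 over the small subunit. Without the 2 libraries that hold Cal33 transcripts 72 members were called and the median was -1.31. The line and any handling that went with it cannot be told apart.

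The spread of the differences was wide, with RPL32 at the low end. RPL32 had 262, 267 and 292 CPM (scaled over all 24 libraries) in Cal33, against 2005, 1708 and 1657 CPM in SAS, a log2 difference of -2.71 ± 0.10. RPSA had 358, 418 and 447 CPM in Cal33, against 2221, 2134 and 1864 CPM in SAS (-2.35 ± 0.11). In both genes every Cal33 library lay far below every SAS library.

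RPL29 (-2.55), RPL14 (-2.47) and RPL37 (-2.41) lay between these. The smallest differences were those of RPS15A (-0.52), RPL22 (-0.56), RPLP2 (-0.61), RPS21 (-0.72) and RPS13 (-0.77). RPS26 alone was higher in Cal33, at 137, 167 and 142 CPM, against 85.7, 92.3 and 65.5 CPM in SAS (0.88 ± 0.12, edgeR adjusted p = 2.65e-06). Its groups did not overlap. RPS26 thus stood against the family between the lines as well as after irradiation of SAS. Processed copies of RPS26 lie elsewhere in the genome, and how reads shared with them were assigned was not tested.

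The differences were also set beside those of neighbouring genes. Of the 7 members on chromosome 3, the 4 lowest were RPL32 (hs37d5, chr3:12875984-12883087), RPL29 (chr3:52027616-52029958), RPL14 (chr3:40498783-40503861) and RPSA (chr3:39448180-39454033), all on the short arm. The other genes within 2 Mb of RPL32 (mean of at least 100 counts) had a median log2 difference of -1.78, with 23 of 25 lower in Cal33. Around RPL29 it was -1.19 (53 of 57 genes lower), around RPL14 -1.21 (15 of 16) and around RPSA -1.10 (21 of 24). RPL15, also on the short arm, had -1.84 with neighbours at -0.70. On the long arm, RPL35A had -1.77 with neighbours at -0.04, and RPL24 -1.17 with neighbours at 0.09.

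Over 72 members, the difference of a gene and the median of its neighbours had a Pearson's r of 0.709, given as a description because neighbours of nearby members are shared. RPL37, on chromosome 5, had neighbours at -1.05, and RPS15A neighbours at 1.07. RPL3 (-2.09) and RPS26 were among the members that departed from the pattern, with neighbours at 0.39 and 0.04. RPL12 (-1.89, neighbours at 0.15) and RPS18 (-1.77, neighbours at 0.06) also did. The median over the members' neighbourhoods was 0.03, against -1.35 for the members themselves. The number of gene copies was not measured, and its part in these values was not tested.

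**Figure D5:**
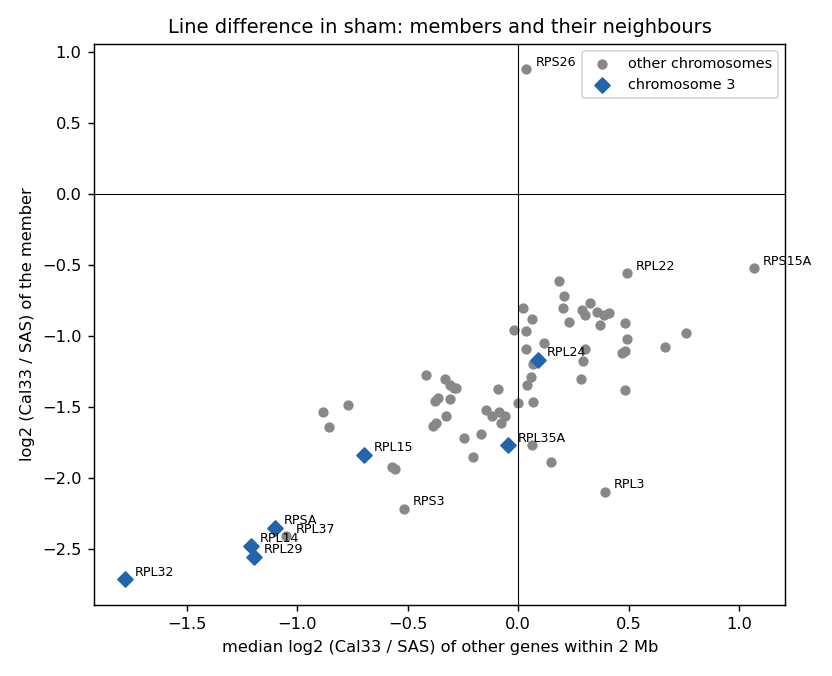
Log2 ratio of Cal33 to SAS in sham cells for each of 72 members (vertical axis) against the median log2 ratio of the other genes within 2 Mb (horizontal axis); diamonds are on chromosome 3. RPL32, RPL29, RPL14 and RPSA lie at the lower left with neighbours between -1.78 and -1.10, and RPS26 alone lies above 0.

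The other lists differed between the lines in their own ways. All 15 measured translation factors and other TOP messages were lower in Cal33 (median -1.15), among them PABPC1 (-2.01), the poly(A) binding protein, and EIF3E (-1.97). The 77 mitochondrial ribosomal proteins had a median of 0.07 and the 73 nuclear genes of the respiratory chain a median of 0.44. Among the copies, RPL39L, a paralog of RPL39 known from the testis, had a log2 difference of -6.83, and RPL3L, the muscle paralog of RPL3, of 4.15.

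Within groups the members were measured closely. The SD of log2 CPM, averaged over the lines, was smallest in RPL15 (0.06), RPL10A (0.06) and RPL23 (0.07) and largest in RPS10 (0.35), RPL13 (0.18) and RPL26 (0.17). In Cal33 the median r between pairs of members was 0.530, against 0.888 in SAS, both over 12 libraries and given as a description.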

How the data were processed

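Total RNA libraries (TruSeq Stranded Total RNA) of 24 samples had been aligned by the authors with STAR 2.5.3a to hs37d5, a GRCh37 genome with decoys, and counted per gene with featureCounts (Subread 1.5.1). The deposited counts on the reverse strand were used, whole numbers that are not normalized. Deposited FPKM and TPM columns were not used. Counts were tested with edgeR 4.0.16 (quasi-likelihood F test, TMM) in R 4.3.3, in one fit of the 12 libraries of each line and one fit of all 24 for comparisons between lines, leaving out genes that averaged under 1 count per library. Genes with a Benjamini-Hochberg adjusted p under 0.05 were called. The fit was tested on simulated counts with larger changes than the median of the members and without paired libraries. That test does not cover changes as small as theirs. DESeq2 1.42.0, other scalings and filters, left-out libraries and a block for the replicate number were alternatives. TPM were computed from the counts and the deposited exon lengths.

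The replicate numbers come from the labels and were taken to pair libraries where every pair's deviations correlated above 0.1. This held in all 4 SAS comparisons (lowest r 0.386) and, in Cal33, for the combination against 4 Gy (0.760) and against GSK-J1 (0.154), but not for the comparisons with sham.

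Genes were named by rule: the 5 called members with the largest change in each direction, or the 3 with the smallest p where fewer than 3 were called, the 5 highest and 5 lowest by TPM, the 5 at each end of the difference between lines, the 3 at each end of the spread, members with known roles, and called genes of the other lists. Some further members were named after their values were seen, and the values of some genes that the rule names are not reported here. The members and lists were chosen with earlier results of these data known. Figures were drawn with matplotlib 3.10.9. Starts came from RefSeq (GRCh38.p14), since no coordinates were converted between builds.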

Additional observations from a re-analysis of the deposited data

How the results depend on the processing

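For 4 Gy against sham in SAS, where 19 members were called, DESeq2 called 36, the replicate block 65 (also 65 without the 2 libraries that hold Cal33 transcripts, an alternative added after seeing the data), the 6 libraries alone 8 and these with a block 58. Leaving out single libraries gave 4 to 26 calls. For GSK-J1 and 4 Gy against GSK-J1 in SAS, where 22 were called, DESeq2 called 54, the replicate block 70, the 6 libraries 6, these with a block 70, the fit without the 2 libraries 0 and the same with the block 42. Leaving out single libraries gave 3 to 34 calls. For GSK-J1 and 4 Gy against 4 Gy in SAS the 6 libraries with a block called 4 in place of 0. In Cal33, for GSK-J1 and 4 Gy against GSK-J1, DESeq2 called 1 and the 6 libraries with a block 2 in place of 0. The difference in response between the lines gave 2 calls by DESeq2 in place of 0. The share of the members in sham SAS cells was 13.2% per kilobase in place of 10.7%. The causes of these shifts were not tested. The median of the members kept its sign in both irradiated SAS comparisons when single libraries were left out (-0.35 to -0.23 and -0.39 to -0.29). Between the lines, 71 to 72 members were called without single libraries, with medians from -1.43 to -1.24, and the median was -1.22 with the block and without the 2 libraries. The median difference in response ran from 0.16 to 0.34. In Cal33 the numbers do not pair the libraries with sham (lowest r -0.58 after 4 Gy and -0.59 with GSK-J1), and with the block 0 members were called there. The replicate block changed no other call counts of members. RPS10 had 279 to 1253 counts per library, few beside the other members described.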
